A study of Homo sapiens with 40 samples.

Results

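Of the 14 single cells prepared with the NEB protocol 10 were compared here, the 5 with the highest and the 5 with the lowest score for 8 genes of mitosis. All 40 deposited cells of the series are T47D at passage 10, an estrogen receptor positive human breast cancer cell line of luminal type. They were detached with trypsin-like enzyme and sorted as live cells with EpCAM and CD49f and without CD45 or CD31. The sources do not say whether all cells came from the same culture. NEB stands for the NEBNext kit of New England Biolabs for single cells and low RNA input, which amplifies full-length cDNA from polyadenylated RNA by template switching, with no molecular identifiers. Cells are named by their wells. Of the 14 NEB cells, F1, B2 and F2 were set aside by the quality thresholds, and the 11 others were scored by the mean of log2(CPM + 1) over TOP2A, CDK1, CCNB1, CCNB2, AURKA, PLK1, CENPF and UBE2C. CPM is the number of reads per 1000000 reads on genes. Cells D1, E1, G2, C1 and A1 form the high-score group, cells E2, H2, D2, C2 and B1 form the low-score group, and cell A2 in the middle was left out. The cells were thus chosen by a readout of the same libraries, they come from 1 cell line and 1 sequencing run, and each group is 1 sample of several cells. No test was made between the groups, and every mean, SD and difference describes these cells only.

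The 8 genes are transcribed late in the cell cycle. Cyclins B1 and B2 activate the kinase CDK1 for entry into mitosis, AURKA and PLK1 are kinases of the centrosome and spindle, TOP2A untangles replicated DNA, CENPF belongs to the outer kinetochore, and UBE2C is a ubiquitin-conjugating enzyme that works with the anaphase-promoting complex. Many such genes carry a cell cycle genes homology region (CHR) and CCAAT boxes before their start. The MuvB complex binds the CHR, with repressors early in the cycle and with B-MYB and FOXM1 later, NF-Y binds CCAAT boxes, and E2F factors bind elements of genes that act in DNA replication.

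These elements are shown in the 250 bases before the start of 6 genes that hold them. The genes were not picked by the size of their difference. The sequences are from RefSeq on GRCh38.p14, 5′ to 3′ on the strand of the gene. Capitals mark TTTGAA (CHR), CCAAT and TTTCCCGC (E2F) or their reverse complements. CCNB2 (chr15:59104896-59105145, plus strand), TOP2A (chr17:40417897-40418146, minus strand) and CDK1 (chr10:60778081-60778330, plus strand) belong to the score. ECT2 (chr3:172750476-172750725, plus strand) and TUBB4B (chr9:137241037-137241286, plus strand) are genes outside the score whose values did not overlap between the groups and that hold a CHR. RFC3 (chr13:33817899-33818148, plus strand) is a replication gene of the same kind with an E2F element.
CCNB2: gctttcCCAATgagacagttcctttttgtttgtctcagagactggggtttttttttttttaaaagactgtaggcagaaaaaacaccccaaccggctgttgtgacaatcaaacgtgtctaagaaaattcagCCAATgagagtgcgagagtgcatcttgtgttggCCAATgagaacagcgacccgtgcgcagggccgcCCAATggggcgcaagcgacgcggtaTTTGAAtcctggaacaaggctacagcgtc
TOP2A: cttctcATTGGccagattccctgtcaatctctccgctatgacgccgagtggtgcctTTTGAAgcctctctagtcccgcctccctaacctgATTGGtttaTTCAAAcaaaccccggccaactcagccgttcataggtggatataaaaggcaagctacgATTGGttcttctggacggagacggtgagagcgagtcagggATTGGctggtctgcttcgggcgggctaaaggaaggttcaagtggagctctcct
CDK1: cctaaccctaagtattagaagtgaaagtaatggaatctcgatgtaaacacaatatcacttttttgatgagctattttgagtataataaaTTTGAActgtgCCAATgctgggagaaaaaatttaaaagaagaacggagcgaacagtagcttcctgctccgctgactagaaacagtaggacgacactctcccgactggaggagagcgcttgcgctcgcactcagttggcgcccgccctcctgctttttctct
ECT2: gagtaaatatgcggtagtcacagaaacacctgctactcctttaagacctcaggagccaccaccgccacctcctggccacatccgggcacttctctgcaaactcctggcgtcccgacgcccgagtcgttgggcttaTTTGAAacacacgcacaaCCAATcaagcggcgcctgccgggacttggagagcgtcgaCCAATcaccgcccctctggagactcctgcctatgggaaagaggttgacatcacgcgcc
TUBB4B: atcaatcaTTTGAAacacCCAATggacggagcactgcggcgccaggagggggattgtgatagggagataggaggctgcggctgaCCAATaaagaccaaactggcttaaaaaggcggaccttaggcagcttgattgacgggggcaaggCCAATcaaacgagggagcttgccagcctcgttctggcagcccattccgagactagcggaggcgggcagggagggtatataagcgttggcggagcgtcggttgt
RFC3: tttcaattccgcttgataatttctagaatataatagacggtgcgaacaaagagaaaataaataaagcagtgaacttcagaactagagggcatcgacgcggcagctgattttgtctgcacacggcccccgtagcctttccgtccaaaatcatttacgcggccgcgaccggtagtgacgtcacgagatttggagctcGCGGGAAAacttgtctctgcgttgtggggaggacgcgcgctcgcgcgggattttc

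In CCNB2 the CHR spans bases 29 to 24 before the start and follows a row of CCAAT boxes at bases 120, 87 and 54. In ECT2 the CHR starts 115 bases before the start, with CCAAT boxes at bases 97 and 58. In RFC3 the E2F element starts 55 bases before the start on the opposite strand, and neither of the other motifs stands in these bases. Not all leading genes hold a CHR there. NUF2, which had the largest difference without overlap outside the score, held none of the motifs in its 250 bases. CCNB1, NEK2 and CDC23 held CCAAT boxes but no CHR, while PLK1 held both. The search was then extended to 300 bases, 250 before and 50 after the start, on both strands, in all 35116 RefSeq promoters. A CHR stood in 15.2% of them, a CCAAT box in 34.6%, both in 5.90% and the E2F element in 1.63%. Of the 6 score genes with a promoter entry, 5 held a CHR and 6 a CCAAT box. Of 41 other G2/M genes with an entry, from the list used below, 27 held a CHR, 27 a CCAAT box and 21 both. Of 33 S phase genes with an entry, 1 held a CHR, 23 a CCAAT box and 9 an E2F element. These letters describe the promoters, and a match does not show binding.

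Only D1 and E1 carried the whole or nearly the whole set of score genes. The score was 10.17 in D1 and 9.57 in E1, then 5.58 in G2, 5.20 in C1 and 5.07 in A1. The middle cell A2 stood at 4.76. The low-score cells followed with 4.29 in E2, 2.66 in H2, 2.13 in D2, 1.70 in C2 and 1.34 in B1. The gap between E1 and G2 was 3.99, whereas A1, just inside the group, lay 0.308 above A2, and A2 lay 0.475 above E2. Reads were found for 8 score genes in D1, 7 in E1, 5 in G2, 5 in C1 and 6 in A1, against 5 in E2, 5 in H2, 4 in D2, 3 in C2 and 3 in B1. The cyclone classifier of scran, which compares pairs of genes within a cell, called D1 and E1 G2/M, each with a G2/M score of 1, although D1 also had a G1 score of 0.861. It called the other high-score cells, A2, E2 and H2 G1, and H2 had the same score of 0.713 for G1 and G2/M. D2 was called S phase with an S score of 0.736. C2 and B1 were also called S phase, which is the call left where neither of the other scores passes, and their S scores were 0.050 and 0.037, below their G1 scores of 0.314 and 0.328. D1 and E1 were the only cells called G2/M. Cyclone reads some of the 8 score genes in the same libraries, so its calls are not independent of the score. The groups are called high-score and low-score below.

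**Figure D1:**
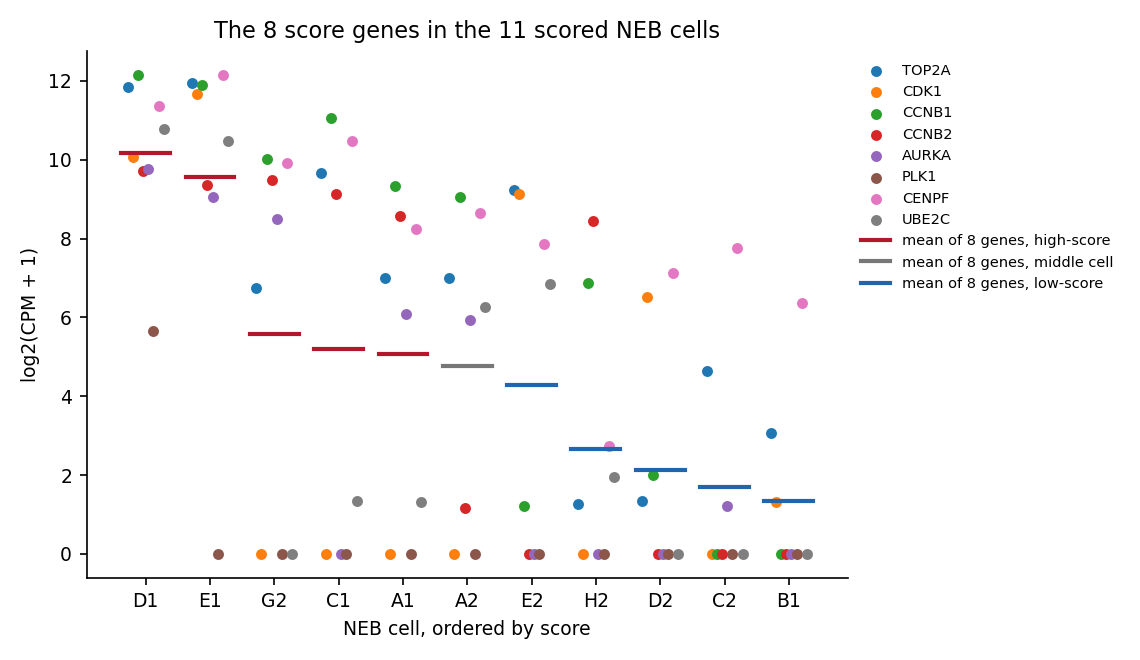
Expression of the 8 score genes as log2(CPM + 1) in each of the 11 scored NEB cells, ordered by score, with 1 point per gene and a bar at the mean of the 8 genes. D1 and E1 stand above the other cells at 10.17 and 9.57, and the steps between G2, C1, A1, A2 and E2 are small.

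The score genes differed in how they marked the cells. These values chose the groups and are given as a description. Cyclin B1 was found at 4567 CPM in D1, 3812 in E1, 1028 in G2, 2119.8 in C1 and 648 in A1. In the low-score cells it was 1.32 CPM in E2, 116 in H2, 3.04 in D2, and 0 in C2 and B1. Cyclin B1 thus separated the groups, as did cyclin B2 and CENPF. CCNB2 ranged from 379.6 to 834 CPM in the high-score cells and was 349 CPM in H2 and 0 in the other low-score cells. CENPF was 2648, 4529, 965, 1414 and 300.1 CPM in D1, E1, G2, C1 and A1, and 5.68 to 232 CPM in the low-score cells. CENPF had reads in all 10 cells, unlike cyclin B2, which was nearly all or nothing. TOP2A was 3663 CPM in D1 and 3976 in E1 but 106, 805 and 126 in G2, C1 and A1, and E2 of the low-score group reached 603 CPM. CDK1 was 1067 CPM in D1 and 3246 in E1 and had no read in G2, C1 and A1. In the low-score cells CDK1 was 557 CPM in E2, 91.1 in D2, 1.47 in B1 and 0 in H2 and C2, so the groups overlapped. AURKA was 864, 529, 359, 0 and 67.5 CPM in D1, E1, G2, C1 and A1, and in the low-score cells it had 1 read, in C2 (1.32 CPM). UBE2C was 1770.0 CPM in D1 and 1425 in E1 and at most 1.53 CPM in the 3 other high-score cells, below E2 at 115 CPM. PLK1 had reads only in D1, at 49.8 CPM. CDK1, UBE2C and PLK1 thus set D1 and E1 apart, or D1 alone, rather than the 5 high-score from the 5 low-score cells.

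Depth did not follow the score in a simple way. Reads on genes ranged from 624772 to 963816 in the high-score cells and from 658323 to 759335 in the low-score cells, and the number of genes with a read from 4416 to 6719 and from 4531 to 5565. ERCC spike-ins, synthetic RNAs added in equal amount, took 5.66% of the library in D1, 10.0% in E1, 14.3% in G2, 17.6% in C1 and 18.9% in A1, and 8.51% to 13.2% in the low-score cells. Per spike-in read, D1 gave 16.7 reads on genes and E1 8.98, while G2, C1 and A1 gave 5.996, 4.68 and 4.30, below each low-score cell (6.57 to 10.8). Over the 11 cells the score and reads on genes per spike-in read had a Spearman rho of 0.06 and a Pearson r of 0.45, and r was -0.22 without D1 and E1. Less RNA in a cell and poorer capture cannot be told apart in these values, and their part in the differences below was not tested. By well name, 4 of the 5 high-score cells came from wells ending in 1 and 4 of the 5 low-score cells from wells ending in 2. The 13 mitochondrial protein genes were level, with a mean log2(CPM + 1) of 11.03 in the high-score and 11.01 in the low-score cells. Of 12 markers of other cell types, PTPRC, PECAM1 and 9 others had no read in the 10 cells. COL1A1, at 1.5 to 44.8 CPM in the high-score and 0 to 50.04 CPM in the low-score cells, was the exception.

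Across all genes the cells were noisy. After the 8 score genes were left out, 7815 genes had a mean of at least 5 CPM over the 10 cells, and 18.1% of them had reads in all 10. Of these genes, 2258 (28.9%) were at least 1 log2 unit higher in the mean of the high-score cells and 2052 (26.3%) at least 1 log2 unit lower, with a median difference of 0.01. A difference of that size is therefore common among single genes here. A stricter description asks for no overlap, so that each high-score cell lies above each low-score cell, or below it. Of the 7815 genes, 30 (0.384%) were higher without overlap and 20 (0.256%) lower without overlap. Of the 30, 25 had 0 reads in at least 1 low-score cell, and of the 20, 18 had 0 reads in at least 1 high-score cell. The list members below are counted over whole lists, whether or not they passed the filter on low values, and gene coordinates are those of GENCODE release 44 on GRCh38.

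**Figure D2:**
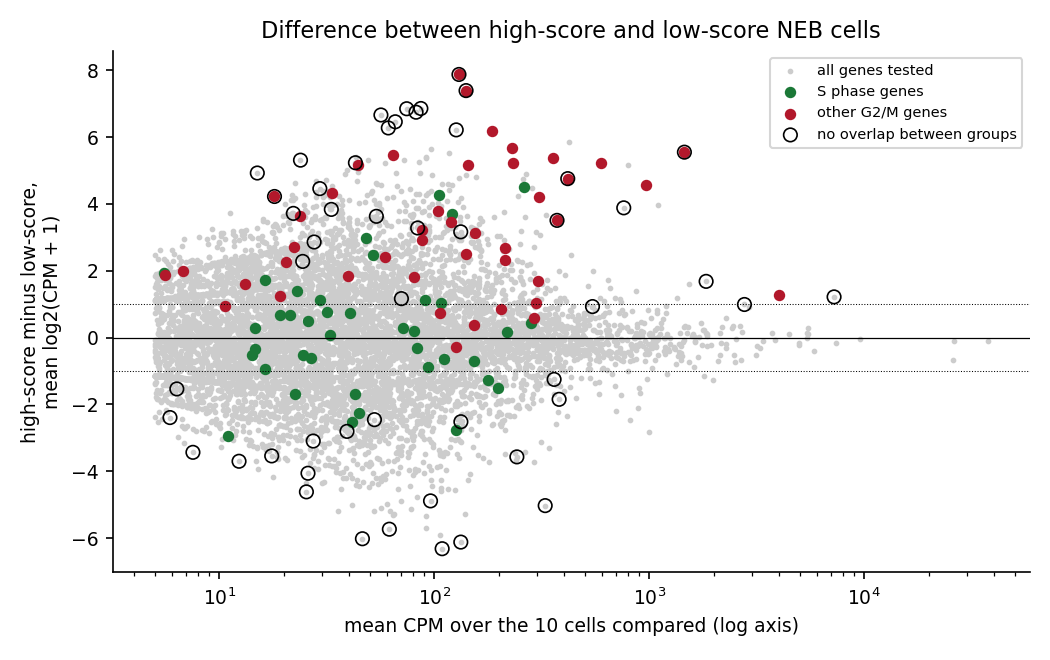
Difference between the groups in mean log2(CPM + 1) for the 7815 genes against their mean CPM on a log axis, with dotted lines at 1 and -1, G2/M and S phase genes coloured and genes without overlap ringed. The other G2/M genes lie mostly above the upper line, and S phase genes lie on both sides of 0.

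Other genes of G2 and mitosis were higher in the high-score cells. Of 48 such genes in the G2/M list of the Seurat package that are not in the score, 38 were at least 1 log2 unit higher and none was at least 1 log2 unit lower, beside 28.9% and 26.3% of all genes. The median difference over the 48 was 2.70, against 0.01 over all genes tested, and 44 of the 48 passed the filter. Of the 48, 6 were higher without overlap. The mean log2(CPM + 1) over the 48 genes was 7.43 in D1, 7.47 in E1, 3.71 in G2, 4.85 in C1 and 3.68 in A1. It was 2.43 in the middle cell. In the low-score cells it was 4.31 in E2, 2.15 in H2, 1.71 in D2, 2.45 in C2 and 1.60 in B1. E2 thus lay above G2 and A1, and the groups overlapped by this list. The difference of the group means was 2.98, with an SD of 1.55 between cells of a group. For D1 and E1 alone it was 5.00, and for G2, C1 and A1 it was 1.64, with 43 and 28 of the 48 genes at least 1 log2 unit higher. Among all 7815 genes tested, 2442 and 2257 were higher by that much in the same cells. Within wells ending in 1 the difference was 4.26, with 4 high-score cells and B1 as the only low-score cell, and within wells ending in 2 it was 1.06, with G2 as the only high-score cell. D1 and E1 also had the most reads on genes and the lowest spike-in percentages of the high-score group, and the part of depth in these values was not tested.

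In most mitotic gene groups D1 and E1 stood highest, and the lists share some genes with the G2/M list. Genes of the kinetochore and centromere hold chromosomes to the spindle. Of 20 such genes, 18 were at least 1 log2 unit higher and none lower by that much, beside 28.9% and 26.3% of all genes. NUF2 (ENSG00000143228, chr1:163266576-163355764), a subunit of the NDC80 complex that binds microtubules, was 224 CPM in D1, 493 in E1, 285 in G2, 178 in C1 and 123 in A1. It had no read in the low-score cells. NUF2 had the largest difference without overlap, 7.87 log2 units. Pooled over the cells, it was 261 CPM (95% Poisson interval 244 to 278), at least 309-fold higher than the 0.843 CPM that 3 reads over the low-score group would give. These intervals cover counting error only. Its partner NDC80 was 444 CPM in D1, 1296 in E1, 40.01 in G2, 84.2 in C1 and 0 in A1, and also had no read in a low-score cell. The kinetochore motor CENPE was 716 CPM in D1, 1176 in E1 and 412 in C1, with 1.60 CPM in G2, 0 in A1 and 1 read in the low-score group. NDC80 and CENPE thus overlapped with the low-score cells only through high-score cells with few or no reads.

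Genes of mitotic entry and the spindle were also highest in D1 and E1 by their list means, with more zeros. Of 19 genes of mitotic entry, 12 were at least 1 log2 unit higher and 1 lower by that much. The shares of all genes were 28.9% and 26.3%. NEK2, a kinase that splits centrosomes, was 352 CPM in D1, 44.8 in E1, 538 in G2, 369 in C1 and 101 in A1, and 1 read in B1 was its only read in a low-score cell. Its highest cell was thus G2, not D1 or E1. Cyclin A2, which acts in S phase and G2, was 41.3 to 200.2 CPM in the high-score cells, 126 CPM in E2 and 0 in the 4 other low-score cells. Of 24 kinesins and spindle assembly genes, 18 were at least 1 log2 unit higher and none lower by that much. NUSAP1 (ENSG00000137804, chr15:41320794-41381050), which bundles spindle microtubules, was 4331 CPM in D1 and 5433 in E1, and 1007, 1319 and 1167 CPM in G2, C1 and A1. In the low-score cells it was 645 CPM in E2, 251 in H2, 0 in D2, 406 in C2 and 1.47 in B1. NUSAP1 had no overlap, and pooled it was 2849.8 CPM in the high-score and 274 CPM in the low-score cells, a 10.4-fold difference. TPX2, which activates AURKA at the spindle, was 1219, 889, 1.60, 1024 and 369 CPM in D1, E1, G2, C1 and A1 and at most 36.9 CPM in the low-score cells. G2 alone among the high-score cells was within the range of the low-score cells for TPX2.

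In the lists of the spindle checkpoint, the anaphase-promoting complex, cytokinesis and condensin, counts are read beside the 28.9% of all genes that were at least 1 log2 unit higher and the 26.3% that were lower. Of 12 genes of the checkpoint and the chromosomal passenger complex, 9 were at least 1 log2 unit higher and none lower by that much. BIRC5 (survivin, ENSG00000089685, chr17:78214186-78225636), a passenger subunit, was 902, 987, 429, 923 and 585 CPM in D1, E1, G2, C1 and A1. It was 125, 122, 0, 93.8 and 8.85 CPM in E2, H2, D2, C2 and B1. BIRC5 varied little between the high-score cells, with a mean log2(CPM + 1) of 9.51 ± 0.52 (SD, n = 5 cells) against 4.76 ± 3.07 in the low-score cells. Of 12 genes of the anaphase-promoting complex and its partners, 6 were at least 1 log2 unit higher and 1 lower by that much. The subunit CDC23 was 44.6, 123, 181, 148 and 67.5 CPM in D1, E1, G2, C1 and A1, and had no read in the low-score cells. It was 107 CPM in the middle cell. Of 8 cytokinesis genes, 4 were at least 1 log2 unit higher and 1 lower by that much. ECT2, the exchange factor that activates RhoA at the cleavage site, was 932, 991, 519, 467 and 222 CPM in D1, E1, G2, C1 and A1. It was 0, 183, 194, 173 and 41.3 CPM in E2, H2, D2, C2 and B1, so A1 lay just above D2. Of 14 condensin and cohesin genes, 5 were at least 1 log2 unit higher, a share near that of all genes, and 1 was lower by that much. The mean difference was 1.91 over the anaphase-promoting complex, 1.20 over cytokinesis and 0.99 over condensin and cohesin, with SDs between cells of 0.76, 1.21 and 0.88.

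The mean difference was 1.84 log2 units over chromatin genes and 1.39 over tubulins, with SDs between cells of 0.83 and 0.47. Of 14 chromatin and nuclear envelope genes of dividing cells, 7 were at least 1 log2 unit higher and none lower by that much. The shares of all genes were 28.9% and 26.3%. The histone variant gene H2AZ1 (ENSG00000164032, chr4:99948086-99950355) was 2347, 3837, 2111, 3194 and 1973 CPM in D1, E1, G2, C1 and A1. It was 1472, 1786, 287, 744 and 625 CPM in E2, H2, D2, C2 and B1. H2AZ1 thus had reads in each cell and did not overlap, with a pooled ratio of 2.69. HMGN2, which binds nucleosomes, also did not overlap (pooled ratio 1.78), and neither did its pseudogene HMGN2P5, whose reads cannot be told apart from those of HMGN2 with confidence. H3-3B, which encodes histone H3.3, was the most abundant gene without overlap, at 7667 to 10981 CPM in the high-score and 3176 to 5539 CPM in the low-score cells. MKI67, the proliferation marker Ki-67, was 605 CPM in D1, 493 in E1, 115 in G2, 12.2 in C1 and 1.5 in A1. In the low-score cells it was 217 CPM in E2, 103 in C2 and 0 in H2, D2 and B1, so MKI67 overlapped. Of 11 tubulin genes, 6 were at least 1 log2 unit higher and none lower by that much. TUBB4B, a beta-tubulin of the spindle and cilia, was 56.0, 39.2, 17.6, 12.2 and 45.0 CPM in D1, E1, G2, C1 and A1, and 10.5 CPM in E2 with no read in the other low-score cells. Tubulin genes are alike in sequence, and reads may have been split between them.

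**Figure D3:**
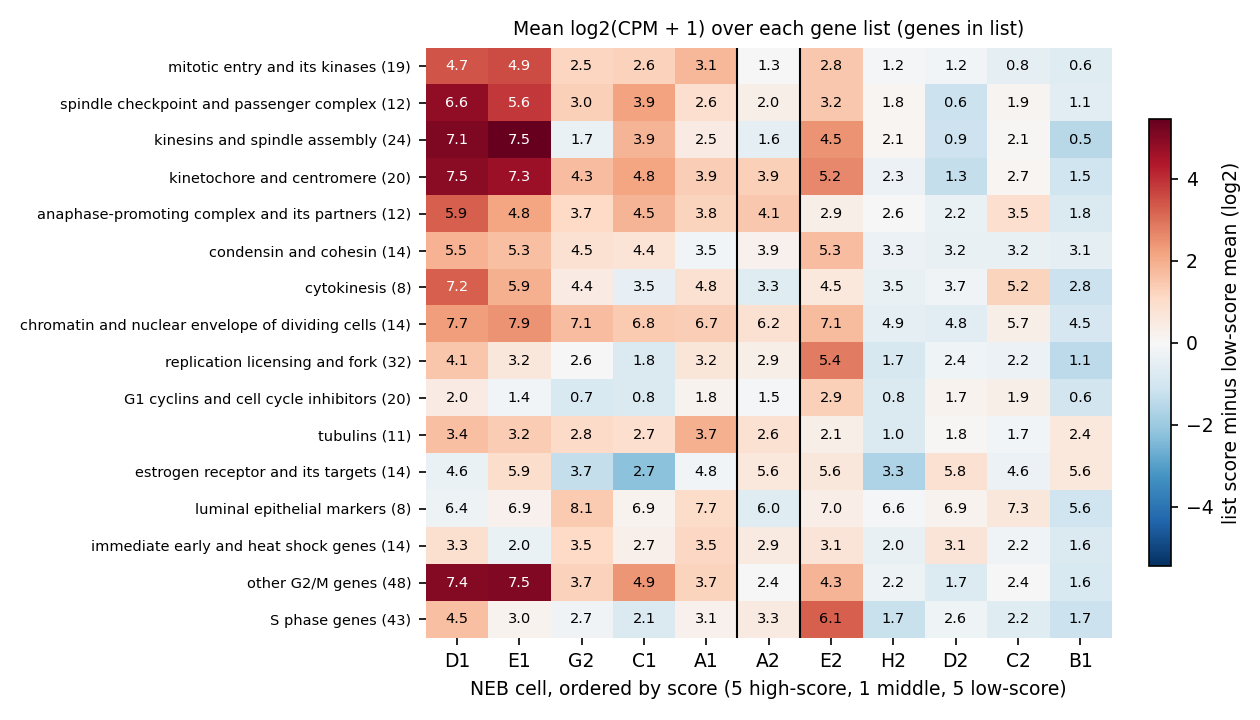
Mean log2(CPM + 1) over each gene list in the 11 NEB cells ordered by score, with the number of genes in parentheses, the mean printed in each field and the colour giving its difference from the mean of the 5 low-score cells. D1 and E1 are highest in most of the mitotic lists, and E2 of the low-score group is highest for S phase and replication genes.

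The mean over S phase genes differed between the groups by less than the SD between cells. Of 43 S phase genes of the Seurat package, 11 were at least 1 log2 unit higher and 8 at least 1 log2 unit lower, near the shares of all genes, and none was without overlap. Their mean log2(CPM + 1) was 4.5, 3.05, 2.67, 2.09 and 3.11 in D1, E1, G2, C1 and A1. It was 6.13 in E2, and 1.67, 2.62, 2.22 and 1.69 in H2, D2, C2 and B1. E2 was thus the highest of the 11 cells for S phase genes, and with 5.41 also for 32 genes of replication licensing and the fork. The difference of the group means was 0.22, with an SD of 1.46 between cells, 1.04 without E2, and -0.24 without D1 and E1. Over the 11 cells of this 1 run, the S phase mean and the score had a Spearman rho of 0.51 and a Pearson r of 0.44, with r at 0.38 without D1 and E1. For the replication genes rho was 0.58, and for the 48 other G2/M genes it was 0.85. PCNA, the sliding clamp of DNA polymerases, was 382, 70.0, 389, 427 and 287 CPM in D1, E1, G2, C1 and A1. It was 798 CPM in E2, 268 in C2 and 0 in H2, D2 and B1. Its pooled levels were 312 and 227 CPM, a ratio of 1.37, while the means of log2 values differed by 4.51, with 3 low-score cells at 0. RFC3, a subunit of the clamp loader, was the only replication gene without overlap, at 218, 179, 96.0, 185 and 64.5 CPM in D1, E1, G2, C1 and A1, with 1 read in E2 and none in the other low-score cells. E2 had reads for PCNA above those of each high-score cell and next to none for RFC3.

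**Figure D4:**
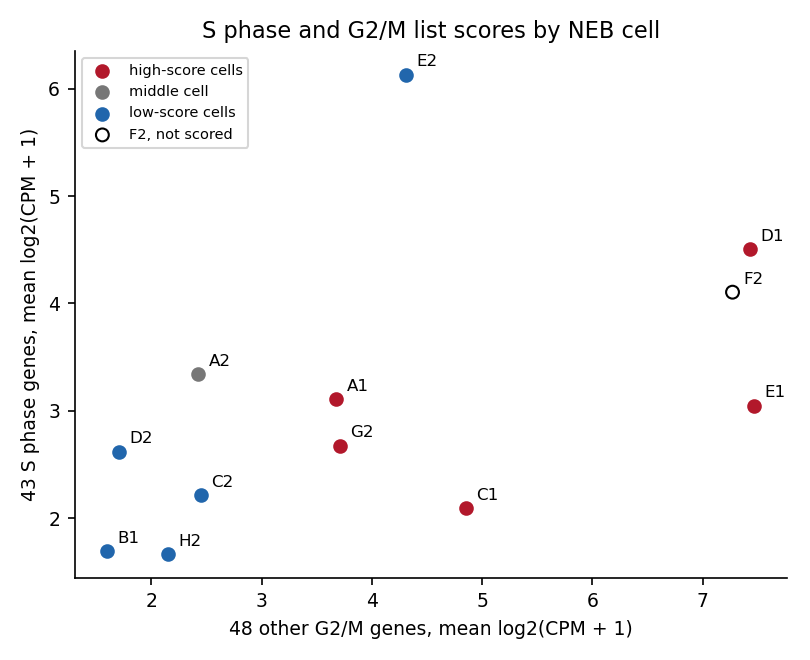
Mean log2(CPM + 1) of the 43 S phase genes against that of the 48 other G2/M genes, with 1 point per NEB cell. D1, E1 and the unscored cell F2 lie at the right between 7.27 and 7.47 on the G2/M axis, and the low-score cell E2 lies at the top with 6.13 on the S phase axis.

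Genes of the G1 phase and of the estrogen receptor differed by less than the SD between cells. Of 20 G1 cyclins and cell cycle inhibitors, 1 was at least 1 log2 unit higher and 6 at least 1 log2 unit lower, beside 28.9% and 26.3% of all genes, so that the share lower was near that of all genes, and 5 had no read in the 10 cells. Their mean difference was -0.22, with an SD of 0.78. Of 14 genes of the estrogen receptor and its targets, 1 was higher by that much and 6 lower, with a mean difference of -0.62 and an SD of 1.13. AREG, an EGF receptor ligand, was the higher one, from 7.5 CPM in A1 to 855 CPM in E1, against 36.9 CPM in E2, 1.52 in D2 and 0 in the other low-score cells. CA12, a carbonic anhydrase, was 789, 210.0, 962, 0 and 738 CPM in D1, E1, G2, C1 and A1, and 395 to 1464 CPM in the low-score cells. The mean over the 14 genes differed from that of the low-score cells by 0.29 log2 units for D1 and E1 and by -1.23 for G2, C1 and A1. Of 8 luminal markers 2 were higher by at least 1 log2 unit and none lower, and their mean was 7.19 in the high-score and 6.68 in the low-score cells. Of 14 immediate early and heat shock genes, which respond to stress and handling, 3 were higher by that much and 1 lower.

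Among the 30 genes higher without overlap, 10 were members of the cell cycle lists and 20 were not. The share of list members among all genes tested was not counted, so this split is a description only. Among the 20, PRR11, CDKN3 and CNTRL have roles in the cell cycle. PRR11 was 176, 154, 86.4, 173 and 66.0 CPM in D1, E1, G2, C1 and A1 and at most 1.32 CPM in the low-score cells. CDKN3, a phosphatase of CDKs, was 959 to 1809 CPM in the high-score and 0 to 562 CPM in the low-score cells. CNTRL, a centriole protein, was 62.3, 82.6 and 146 CPM in D1, E1 and A1 and held 1 read each in G2 and C1, with none in the low-score cells. Its separation thus rests on single reads. Others are better known for roles elsewhere, among them PPIL3, a cyclophilin, with a difference of 6.85 log2 units, STK3, a kinase of the Hippo pathway, with 6.74, TMEM19 with 6.27, and PGD, an enzyme of the pentose phosphate pathway, with 5.23. Of the 30 genes, 25 had a promoter entry, 8 of these held a CHR, 15 a CCAAT box and 6 both. Much of this came from the list members. Of the 9 that were also at least 1 log2 unit higher, 8 had an entry, and 5 of these held a CHR, 6 a CCAAT box and 4 both. The counts over the 30 thus do not describe the genes outside the lists. Among all promoters the shares were 15.2%, 34.6% and 5.90%. Of the 16 entries for the lower genes, 1 held a CHR, 4 a CCAAT box and none both.

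The 20 genes lower without overlap were of mixed kinds, and 1 of them had no symbol. IGFBP5 (ENSG00000115461, chr2:216672105-216695549), a binding protein of insulin-like growth factors, was 29.1, 9.80, 122, 0 and 27.0 CPM in D1, E1, G2, C1 and A1. It was 450.4, 233, 565, 518 and 1326 CPM in E2, H2, D2, C2 and B1. Pooled, IGFBP5 was 35.6 CPM (95% Poisson interval 29.7 to 42.3) in the high-score and 609.7 CPM (584 to 636) in the low-score cells, 17.1-fold higher in the latter. MYC, a transcription factor of growth, was 0 to 4.2 CPM in the high-score cells and 122, 42.6, 12.2, 68.7 and 5.90 CPM in E2, H2, D2, C2 and B1. The gap between E1 and B1 for MYC was thus a matter of few reads. ARFIP1, which binds small GTPases of the Golgi, had the largest difference, -6.32 log2 units, at 64.3 CPM in D1, 0 in the other high-score cells and 92.5 to 309 CPM in the low-score cells. SNHG16, a host gene of small nucleolar RNAs, differed by -6.02 and KLHL13, a ubiquitin ligase adaptor, by -6.12.

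Cells F2 and A2, outside the groups, were set against the low-score cells. F2 had failed the depth threshold only, with 549926 reads on genes, and its score of 10.37 was the highest of the 14 cells. Of the 30 genes higher without overlap, F2 exceeded each low-score cell for 23, which included all 10 members of the cell cycle lists and 13 of the 20 others, beside 12.8% of all genes tested. Of the 20 genes lower without overlap, F2 was below each low-score cell for 15, beside 5.44% of all genes. These genes were picked for low-score cells at the lower or upper end, so any further cell tends to lie beyond them. The shares of all genes are therefore no fair baseline, and likeness of F2 to the high-score cells was not tested. In the middle cell A2, 18 of the 30 and 9 of the 20 met the same descriptions, beside 13.2% and 4.95% of all genes. The 18 were 6 of the 10 list members and 12 of the 20 others. A2 had CDC23 at 107 CPM, within the range of the high-score cells, BIRC5 at 251 CPM, between the groups, and no read of NUF2 and RFC3.

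The same score was used to split the cells of the other 2 protocols, which hold other cells of the line. In Takara (SMART-Seq HT) and G&T cells, 5 high-score and 5 low-score cells were again taken from 11. The number of genes at least 1 log2 unit higher was 12% of those tested in Takara and 27.3% in G&T, and 1.57% and 1.8% were higher without overlap. Of the 48 other G2/M genes, 45 were at least 1 log2 unit higher in Takara and 44 in G&T, and 28 and 23 were without overlap, against 38 and 6 in NEB. The comparison sets different cells and different runs side by side, and the difference between protocols was not tested. Of the 30 NEB genes, 12 were at least 1 log2 unit higher in Takara and 5 without overlap, and 13 and 7 in G&T. By list, these were 8 of 10 cell cycle members against 4 of 20 others in Takara, and 8 of 10 against 5 of 20 in G&T. NUF2 differed by 4.63 and 1.69 log2 units in Takara and G&T, NEK2 by 4.38 and 3.97, NUSAP1 by 4.72 and 3.55, and PRR11 by 4.30 and 3.13. PPIL3 differed by 0.23 and 2.48, STK3 by 0.12 and 1.65, TMEM19 by 0.50 and 0.28, and PGD by 0.30 and 0.11. CDC23, a member of a cell cycle list, differed by 0.17 and 1.89, so it too changed little in Takara. Of the 20 lower genes, 4 were at least 1 log2 unit lower in Takara and 2 in G&T, beside 8.08% and 9.9% of all genes tested there. In Takara 1 and in G&T 5 of the 20 were at least 1 log2 unit higher, beside 12% and 27.3% of all genes. MYC differed by -2.26 and -0.51, IGFBP5 by -1.98 and -1.19, and ARFIP1 by -0.68 and 0.26. The 10 cell cycle members had a median difference of 2.04 in Takara cells and 1.62 in G&T cells. For the 20 others the medians were 0.33 and 0.23, beside 0.01 and 0.37 for all genes tested.

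**Figure D5:**
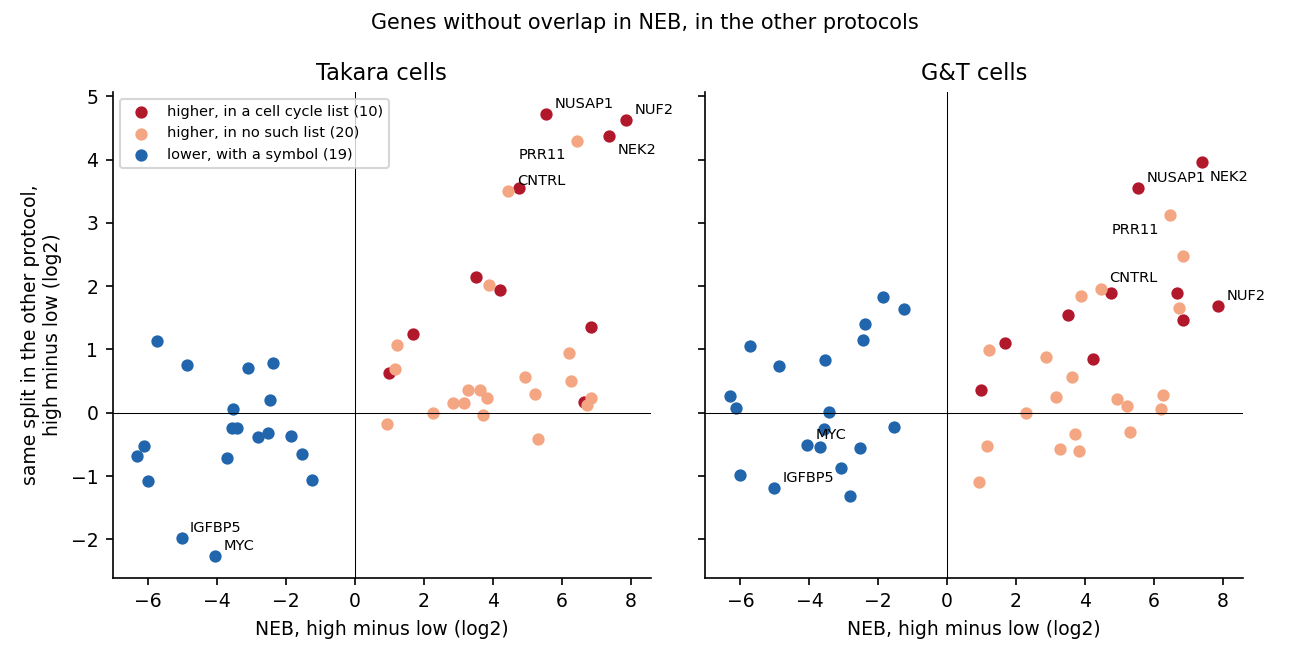
Difference between high-score and low-score cells in Takara (left) and G&T (right) against that in NEB, in log2 units, for the 30 genes higher and the 19 named genes lower without overlap in NEB. Members of cell cycle lists reach 4.72 in Takara and 3.97 in G&T, and the other genes range from -2.26 to 4.30 in Takara and from -1.31 to 3.13 in G&T, on both sides of 0.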

How the data were processed

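The values are read counts per gene, as deposited. The authors trimmed the reads with Trim Galore in 2 rounds, aligned them to GRCh38 with STAR and merged the counts of a protocol into 1 table, with no normalization. The annotation release and the strand setting are not given in the sources used here. NEB cells were kept with at least 1000 genes, 600000 reads on genes and ERCC spike-ins, at most 30% mitochondrial and at most 25% ERCC reads. F2 failed on reads, B2 on ERCC reads, and F1 on genes, reads and ERCC reads. Counts were scaled to 1000000 reads on ENSG genes (CPM), and log2(CPM + 1) was averaged over the cells of a group. Genes with a mean of at least 5 CPM over the 10 cells were compared, without the 8 score genes. A total of 3 reads over a group served as the limit for a count of 0, and pooled CPM have exact 95% Poisson intervals. Reads carry no molecular identifiers, so intervals cover counting error only. No test was made, since the cells were chosen by a readout and come from 1 cell line and 1 sequencing run. The members and lists were chosen with earlier results of these data known. Named are the score genes, the 15 largest differences without overlap in each direction and up to 4 members of each list with the largest difference, and further genes without overlap where the text describes them. Lists other than those of Seurat were assembled by hand from gene functions. Gene symbols come from a table of Ensembl identifiers, which left 4175 of 60279 genes without one. Alternatives changed the scaling (TMM of edgeR 4.0.16, DESeq2 1.42.0, ERCC), the filter, the pseudocount, pooling, depth and the cells compared. The code of the gene comparison was run on simulated counts for genes of at least 20 CPM. That run does not cover genes with reads in few cells. Cell cycle stages came from cyclone in scran 1.30.0 with R 4.3.3, and other steps used Python 3.11.15 (pandas 2.3.3, numpy 2.4.6, matplotlib 3.10.9, scipy 1.17.1) with seed 11.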

Additional observations from a re-analysis of the deposited data

Results flagged for a closer look

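Each group of 5 cells was searched for a highest or lowest cell that stood far from the rest, by its gap to the next cell relative to the range. The cutoff would be passed by about 1 of 20 groups of independent normal values. Lists that share genes and genes with many zeros are not such values, so the counts below are not set against chance. Among 48 groups for cell measures and list scores, 6 had such a cell, and 5 of these were E2 in the low-score group. E2 was high for S phase genes (6.13), replication genes (5.41), condensin and cohesin genes (5.31) and mitotic entry genes (2.77), and low for mitochondrial protein genes (10.77), each as mean log2(CPM + 1). In the high-score group D1 stood apart with 963816 reads on genes.

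Among 33 genes whose cell values or ranges are given one by one, 16 of 66 groups had such a cell, in many of them with no read in the other cells. Where a single cell of a group holds all the reads, the rule is met whatever their number. E2 was far above the other low-score cells for CCNA2 (126 CPM), UBE2C (115 CPM), AREG (36.9 CPM), TUBB4B (10.5 CPM) and RFC3 (1.32 CPM). Other low-score cells stood apart for CCNB2 (349 CPM in H2), AURKA (1.32 CPM in C2), NEK2 (1.47 CPM in B1), CENPE (1.52 CPM in D2) and CDKN3 (0 CPM in D2). For AURKA, NEK2, RFC3 and CENPE this was a single read. In the high-score cells D1 was far above the others for PLK1 (49.8 CPM) and ARFIP1 (64.3 CPM). C1 was far below for CA12 (0 CPM), G2 for TPX2 (1.6 CPM), E1 for PCNA (70.0 CPM) and A1 for H3-3B (7667 CPM).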

How the results depend on the processing

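The groups were taken from a readout, and the cells are not replicates of a condition. A count of genes without overlap grows as cells are left out, since fewer cells must be in order. Of 180 values recomputed under other settings, 150 stayed within 1.5 times the count or within 1 SD between cells, and 30 moved further. Some of the 150 could not move. A standardized score gave the same groups, a pseudocount cannot change a count without overlap, and leaving out the filter cannot change a list mean. For the S phase mean the SD of 1.46 is a wide limit. The tally is thus no measure of how stable the results are. Scaling to ERCC spike-ins left 19 genes higher without overlap and shifted the median of all genes by more than 0.1, to -0.11. A mean of at least 20 CPM left 1361 genes at least 1 log2 unit higher and 1256 lower, and a pseudocount of 10 CPM 987 and 894. Counts of genes without overlap were 101 higher and 80 lower for 4 against 4 cells, and 287 and 300 for 3 against 3. Leaving out each cell in turn gave 40 to 63 higher and 29 to 51 lower without overlap, 2098 to 2483 at least 1 log2 unit higher and 1957 to 2379 lower. The mean over the other G2/M genes then ranged from 2.47 to 3.45, with 34 to 42 of them at least 1 log2 unit higher. The mean over the S phase genes ranged from -0.13 to 1.04. It was below 0 without D1, H2 or B1 and by the pooled ratio (-0.43), and -0.24 without both D1 and E1. Settings chosen after seeing the data gave 135 higher and 91 lower genes without overlap when D1 and E1 were left out, and 398, 146 and a G2/M mean of 5.00 when they alone were compared with the low-score cells. The pooled ratio gives no count without overlap. No paired analysis was possible because the cells of the groups are single cells that share no number. Reads in all 10 cells were found for 18.1% of genes, and at this depth a gene at 0 in a cell cannot be called absent there.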

Other observations

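The other NEB cells that failed the thresholds were also scored. F1 had 1421 reads on genes, with 99.7% of its library on ERCC spike-ins, and a score of 2.62 from 2 score genes. B2 had 450656 reads on genes, 28.4% on spike-ins, 2812 genes with a read and a score of 1.33 from 3 score genes. Over the 48 other G2/M genes, B2 had a mean log2(CPM + 1) of 0.93 and F1 of 1.63, while F2 had 7.27.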
